A study of Bos taurus with 29 samples.

Results

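The comparison is between endometrial stroma of cows with high progesterone (P4) and of cows with low P4. Its members are the ST samples, the cells captured by laser from the stroma, 12 of the 29 samples of the series. The labels put 3 of them in the high P4 group (cows G_6450, G_6460 and R_5771) and 9 in the low P4 group (cows G_3030, G_5645, G_6480, R_5614, R_5626, R_5780, R_6492, R_6494 and R_6545). Cows are called by the first parts of their sample titles, a letter and a number. Each cow gave 1 ST sample, so the samples are independent animals and no cow stands in both groups. All cows were Holstein, with uteri judged healthy, and were biopsied at 45 days postpartum according to the labels. The groups were set by the state of each cow and not by a treatment: high P4 cows had a functional corpus luteum and P4 above the cut-off of the study in blood, and low P4 cows had P4 below it. The low P4 group joined cows in anoestrus and cyclic cows near oestrus, and the labels do not say which cow was which. The stromal capture was taken from tissue that can also hold immune and endothelial cells. The remaining samples, 10 of glandular epithelium (GE) and 7 of luminal epithelium (LE), serve here only to show where a transcript was otherwise found.

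P4 is the steroid of the corpus luteum that prepares the uterus for pregnancy. It acts through the progesterone receptor, a transcription factor, and in the endometrium much of its effect on the epithelium is relayed by growth factors that the stroma secretes. In cyclic cows the stroma meets rising P4 after each ovulation and loses it at luteolysis, so low P4 tissue near oestrus has had its latest P4 exposure withdrawn.

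The values are those of transcripts, named by their Ensembl identifiers. The sources used here do not pair these identifiers with gene symbols, and no sequence is printed for the same reason. Gene lists and cell type markers could therefore not be read, and the label "stromal cells" could not be checked against known marker genes. It was checked against lists of transcripts that separated the captured cell types, given below. The ST samples held 24860445 to 33209181 estimated counts each, with 20423 to 22459 transcripts at a count of at least 10. High P4 samples had 21858 ± 307 such transcripts (mean ± SD, n = 3) and low P4 samples 21298 ± 575 (n = 9). This difference did not pass the exact permutation test (two-sided p = 0.164). Without the low P4 sample of cow G_6480, which had the most transcripts, the exact permutation p was 0.0242. Leaving out any other single sample gave an exact permutation p of 0.145 to 0.364. No 2 ST samples were identical. The labels do not give the meaning of the letter G or R in the titles. The letter G is on 2 of the high and 3 of the low P4 samples, and R on 1 high and 6 low P4 samples.

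At an adjusted p of at most 0.05, edgeR's quasi-likelihood test called 2 of the 24359 transcripts tested, both higher with high P4, which is 0.00821% of them. It called 0 lower (0%). At an unadjusted p under 0.05 it had 2609 transcripts, 10.7% of those tested, of which 1182 were higher and 1427 lower in high P4 stroma. The middle of all changes lay at a log2 fold change of -0.01, with quartiles of -0.47 and 0.39. The number called depended strongly on the tool. On the same samples and 24359 transcripts, DESeq2 called 154 higher and 256 lower, and limma voom 20 higher and 1 lower. Of the transcripts that DESeq2 called, 114 of the 154 higher and 111 of the 256 lower had high and low P4 samples that did not overlap. Over all transcripts tested, the high P4 samples all lay above the low P4 samples in 1.75% and below them in 1.07%. Calling for a group difference itself favours such transcripts. Of the 256 lower ones called, 60 were at 0 in every high P4 sample. The share over all transcripts tested is not given here, so this number is a description only.

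The transcript with the strongest evidence was ENSBTAT00000087134.1, 1810 bases long, which rose with high P4. Its CPM (counts relative to the library total, scaled by TMM) were 138 in cow G_6450, 465.5 in cow G_6460 and 74.5 in cow R_5771. In the 9 low P4 cows it lay between 0 and 1.64, with a median of 0.141, and 2 of them had 0 counts. The lowest high P4 sample was thus 45.4 times the highest low P4 sample. The log2 fold change was 9.46 with a standard error of 0.97 (edgeR, adjusted p = 0.0057). The call was made again in each of the 12 fits that left out 1 ST sample, with adjusted p from 0.000191 to 0.0279.

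In the high P4 cows this transcript was higher in the stroma than in the glands. On the TPM scale, which accounts for transcript length, cow G_6450 had 119 in ST and 9.03 in GE, and cow R_5771 had 57.7 in ST and 5.04 in GE. ST was therefore 13.1 and 11.5 times GE in the same cow. In GE the 3 high P4 samples had 1.91 to 9.03 TPM and the 7 low P4 samples 0 to 0.67, so that these groups did not overlap either. The GE samples came in part from the same cows and are no independent set.

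A second transcript was higher by a like factor and far more abundant, but did not pass the threshold. It is 1378 bases long, was chosen after its values were seen and had rank 3 by p. Its CPM were 13678 in cow G_6450, 30019 in cow G_6460 and 6580.3 in cow R_5771. The 9 low P4 samples had 2.67 to 257, with a median of 14.8. By TPM it was the most abundant transcript of the whole library in the ST of cows G_6450 and G_6460, and ranked 9 in cow R_5771, while its rank in low P4 samples ran from 552 in cow G_6480 to 13585 in cow R_6492. The log2 fold change was 8.47 with a standard error of 1.21 (edgeR, adjusted p = 0.0712), and DESeq2 gave an adjusted p of 2.19e-05. Cow G_6450 had 16670 TPM in ST and 1459 in GE, and cow R_5771 had 7356 in ST and 685 in GE. This one too was over 10 times as high in ST as in GE of the same cow, at 11.4 and 10.7 times. It was higher with high P4 in epithelium as well. In GE the 3 high P4 samples had 295 to 1459 TPM and the 7 low P4 samples 6.96 to 141. In LE the 1 high P4 sample had 263 TPM and the 6 low P4 samples 0 to 41.4.

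In low P4 stroma both transcripts were highest in cow G_6480. That sample had 1.64 CPM of ENSBTAT00000087134.1, against at most 0.454 in the other 8 low P4 cows, and 257 CPM of the abundant transcript, against at most 75. Both values stayed far below those of any high P4 cow.

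ENSBTAT00000048571.4, 2477 bases long, was the other transcript called. Its CPM were 131 in cow G_6450, 1.05 in cow G_6460 and 6.87 in cow R_5771, against 0 to 0.383 in low P4 cows. The groups did not overlap, but the high P4 samples differed among themselves by more than 100-fold and cow G_6450 held most of the counts. The log2 fold change was 9.02 with a standard error of 1.17 (edgeR, adjusted p = 0.0379). Without cow G_6450 it was 5.44 with an adjusted p of 0.527, and with the level of epithelial transcripts as a covariate it was 5.12 with an adjusted p of 0.379. It was called in 3 of the 12 fits that left out 1 sample.

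This second call was a glandular transcript by its levels. In GE it had 146 to 710 TPM in the 3 high P4 samples and 0.16 to 62.6 in the 7 low P4 samples. It is on the list of 45 transcripts whose level in GE of low P4 cows was at least 20 times that in LE and in ST. In cow G_6450 its ST level was 10.8% of the GE level, and in cow R_5771 it was 0.803%. The same ratio was read over the transcripts of that list with at least 10 TPM in GE of the cow. Its median was 11.5% in cow G_6450 (31 transcripts) and 1.24% in cow R_5771 (32 transcripts). The part of captured gland in this result was not tested.

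**Figure D1:**
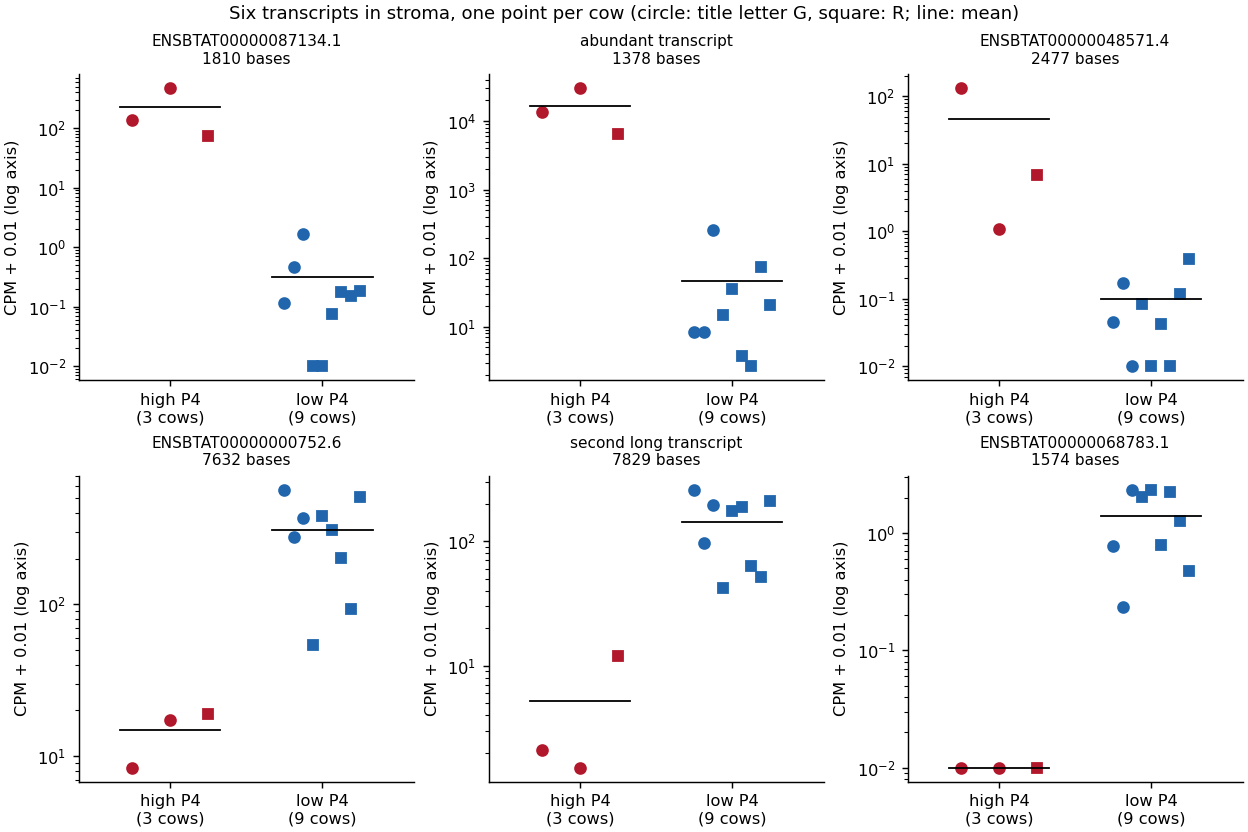
CPM plus 0.01 (log axis) of 6 transcripts in the stroma of the 3 high P4 (red) and 9 low P4 cows (blue), with 1 point per cow and a line at the mean; circles are samples with title letter G and squares those with R. In each panel all high P4 points lie on one side of all low P4 points, with the 3 transcripts higher in high P4 in the upper row and the 3 lower ones below.

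In the other direction no transcript passed the test in edgeR, and the values of the leading ones are given as such. ENSBTAT00000000752.6 is a long transcript of 7632 bases. It had 8.37, 17.1 and 18.8 CPM in the high P4 cows G_6450, G_6460 and R_5771. Its low P4 values ran from 53.9 in cow R_5614 to 568.2 in cow G_3030, with a median of 311. The 2 groups were separated by a factor of 2.86 between the lowest low P4 and the highest high P4 sample. The log2 fold change was -4.38 with a standard error of 0.75 (edgeR, adjusted p = 0.121), and DESeq2 gave an adjusted p of 6.19e-11.

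A second long transcript, of 7829 bases and chosen after its values were seen, had a like pattern. Its CPM were 2.11, 1.51 and 12.0 in cows G_6450, G_6460 and R_5771, and 42.2 to 258 in low P4 cows. The log2 fold change was -4.78 with a standard error of 0.89 (edgeR, adjusted p = 0.125). In both long transcripts cow R_5614 was the lowest of the low P4 group and cow G_3030 the highest. In the low P4 cows ENSBTAT00000000752.6 had 41.2 ± 22.7 TPM in ST (mean ± SD, n = 9), 6.30 ± 13.7 in GE (n = 7) and 10.3 ± 12.0 in LE (n = 6). The second long transcript had 18.8 ± 10.7 TPM in ST, 3.45 ± 7.38 in GE and 5.16 ± 8.74 in LE.

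ENSBTAT00000068783.1, 1574 bases long, had 0 counts in all 3 high P4 samples. The low P4 samples had 7 to 78 counts, or 0.227 to 2.33 CPM. With 3 counts over the high P4 group as the floor that a count of 0 allows, the low P4 mean was 41.0 times that floor. The floor covers the counting of reads and not the variation between cows, so it is no bound on the group difference. The adjusted p was 0.121 in edgeR and 3.04e-05 in DESeq2. It was a rare transcript in every cell type, at no more than 2.19 TPM in any ST sample. In LE of the 1 high P4 cow with such a sample it had 1.46 TPM.

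The order of the groups was the same within each title letter for the named transcripts. It had to be, because in each of them every high P4 sample lay on one side of all the low P4 samples. The order within a letter is therefore no check on the part of the letter. For ENSBTAT00000087134.1 the mean CPM was 302 with high and 0.734 with low P4 among samples with G, and 74.5 and 0.0901 among those with R. For ENSBTAT00000000752.6 the means were 12.8 and 405 with G, and 18.8 and 259 with R. With R there was a single high P4 sample, so these values have no error within that letter. With the letter as a covariate ENSBTAT00000087134.1 was still called (adjusted p = 0.000429), and ENSBTAT00000048571.4 was not (adjusted p = 0.218), with log2 fold changes of 9.05 and 8.54.

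Beyond the few leading transcripts, the groups were compared by counting those with no overlap. All 3 high P4 samples lay above all 9 low P4 samples in 427 transcripts (1.75% of those tested) and below them in 260 (1.07%). The median log2 fold change was 1.32 in the first set and -0.97 in the second, as the choice itself requires. The split depended on the scale: with TPM in place of CPM 921 transcripts lay above and 103 below. On that scale the middle of all changes was itself shifted upwards, by 0.25 (log2) in the fit on log2(TPM + 1). With a distance of at least 2-fold between the groups, after adding 0.5 CPM, 14 of the 24359 transcripts tested were above and 4 below. These 14 include ENSBTAT00000087134.1 and the abundant transcript but not ENSBTAT00000048571.4, and the 4 include both long transcripts.

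The 2 sets differed in kind. Those above were of average abundance, with a median of 4.59 TPM against 4.17 over all transcripts tested, and long, with a median of 2693 bases against 2263. Those below were abundant and short, with medians of 49.4 TPM and 1524 bases. Of those above, 71 (16.6%) had at least 5 times as high a level in epithelium as in low P4 stroma, against 6.55% of all transcripts tested. Of those below, 3 (1.15%) did. At the 2-fold distance, 5 of the 14 above and 0 of the 4 below did. The stromal samples of this ratio are 6 of the low P4 samples compared, so a transcript that is low in them tends towards both properties. Without cow G_6450 the share among those above was 8.73% (79 of 905).

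The split also differed with abundance. Among the 1578 transcripts with a mean of 100 TPM or more in ST, 19 (1.2%) lay above and 106 (6.72%) below. Among the 9479 transcripts of 1 to 10 TPM, 188 (1.98%) lay above and 52 (0.549%) below. At an unadjusted p under 0.05 there were 484 (30.7%) of the most abundant class and 849 (8.96%) of the class of 1 to 10 TPM. In the abundant class the median size of the change was 0.56 (log2) and 268 transcripts (17.0%) had a fitted difference of 2-fold or more, against a median of 0.29 and 7.98% at 10 to 100 TPM and a median of 0.39 and 15.6% at 1 to 10 TPM. Of the 19 abundant transcripts above, 16 were highest in cow G_6460, and of the 106 below, the highest of the high P4 samples was most often that of cow R_5771 (61).

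**Figure D2:**
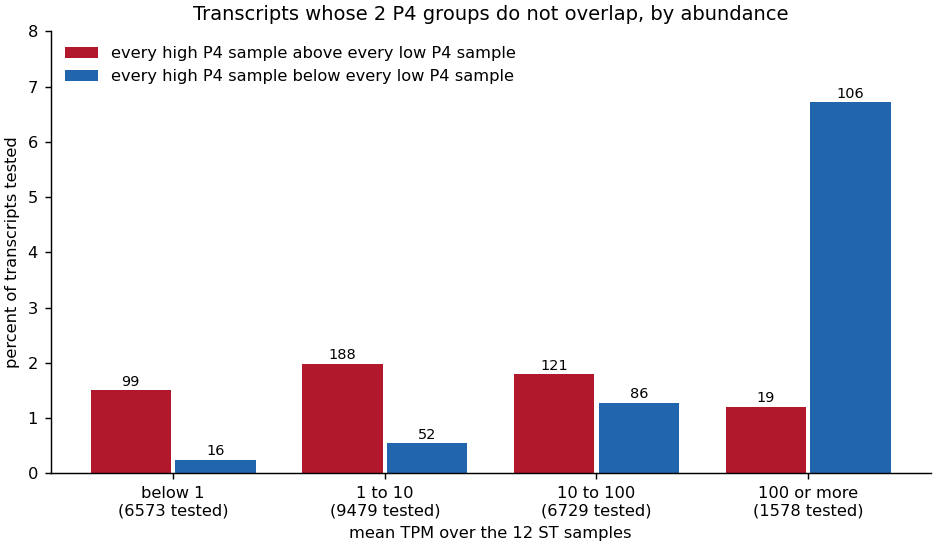
Percent of the transcripts tested (vertical axis) whose 3 high P4 samples all lie above (red) or below (blue) the 9 low P4 samples, in 4 classes of mean TPM (horizontal axis), with the number of transcripts over each bar. The share lying below rises from 0.243% under 1 TPM to 6.72% at 100 TPM or more, while the share lying above stays between 1.2% and 1.98%.

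Among abundant transcripts the shift went with length, a grouping chosen after the values were seen. The 621 abundant transcripts shorter than 1000 bases had a median log2 fold change of -0.65, and 555 of them (89.4%) were lower in high P4 stroma. The 705 of 1000 to under 2000 bases had a median of -0.41 and the 252 longer ones -0.24. For comparison, the 5874 transcripts of 1 to 10 TPM and 2000 bases or more had a median of 0.13. That class differs from the short abundant one in abundance as well as length, so it does not separate the 2. On the scale of log2(TPM + 1), where all changes were shifted by 0.25, the 3 abundant classes had medians of -0.29, -0.08 and 0.09, the last of them reversed in sign but still under the shift.

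The samples did not divide by P4 alone in this respect. In the short abundant class the median difference of a sample from the mean of the 12 was -0.30 in cow G_6450, -0.73 in cow G_6460 and -0.23 in cow R_5771 (log2). Low P4 samples ran from -0.45 in cow G_6480 and -0.35 in cow G_5645 to 0.87 in cow R_6545. The groups therefore overlapped, and the overlap came from cows with title letter G, where the low P4 values were 0.09, -0.35 and -0.45. Among samples with R the 6 low P4 values, from -0.04 to 0.87, all lay above the single high P4 value. With the letter as a covariate the median log2 fold change was -0.46. Leaving out a high P4 cow gave -0.51 (cow G_6460) to -0.74 (cow R_5771). Fragment length, RNA integrity and handling are not given for single samples, and their part was not tested.

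**Figure D3:**
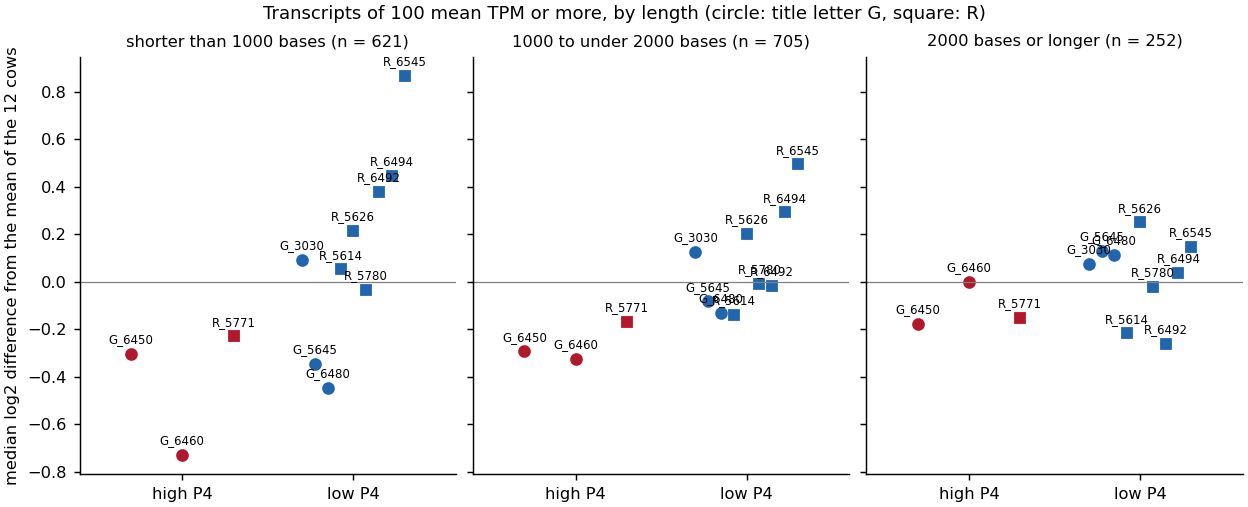
Median log2 difference of each ST sample from the mean of the 12 cows (vertical axis) over transcripts of 100 mean TPM or more, in 3 classes of transcript length (panels), with high P4 cows in red, low P4 cows in blue, circles for title letter G and squares for R. In the shortest class the samples spread from -0.73 in cow G_6460 to 0.87 in cow R_6545, with the low P4 cows G_5645 and G_6480 among the high P4 cows, and in the longest class the spread is narrower.

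The stromal identity of the samples was checked with transcripts that separated the captured cell types in 6 low P4 cows. The epithelial list holds 163 transcripts that had at least 10 TPM in both GE and LE and were at least 20 times higher there than in ST. Their summed level was 28912 to 180894 TPM in the epithelial samples. In high P4 stroma it was 12362 TPM in cow G_6450, 1384 in cow G_6460 and 1735 in cow R_5771. In the 3 low P4 ST samples that took no part in choosing the list it was 449 to 1609 TPM. In the 6 that did, where the choice keeps it low, it was 59.8 to 4302 TPM. The sample of cow G_6450 thus held by far the highest level of epithelial transcripts in ST, and 162 of the 163 were above 0 in it. In a bulk sample more epithelial cells and more epithelial RNA per cell cannot be told apart.

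The ST sample was also set against GE of the same cow, over the list transcripts with at least 10 TPM in that GE sample. Of the epithelial list these numbered from 93 in cow R_6545 to 152 in cow R_5780, so the set differed between cows. In cow G_6450 the median epithelial transcript in ST was at 17.2% of its level in GE, with quartiles of 13.2% and 21.1%. In the high P4 cow R_5771 the median was 2.10%. Of the 7 low P4 cows with both samples, cow G_6480 had 8.30%, cow R_6545 had 4.14% and the other 5 had 0.0338% to 0.852%. Of the glandular list of 45 transcripts, 10 (cow R_6545) to 44 (cow G_5645) reached 10 TPM in GE. Their median was 11.5% in cow G_6450 and 0% to 1.83% in the others. The summed level of all 45 in ST was 334 TPM in cow G_6450 and 4.32 to 38 TPM in the other 11 samples. The luminal list of 25 transcripts gave no such sign, with 17.2 TPM in cow G_6450 against 1.6 to 95.2 TPM in the others.

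**Figure D4:**
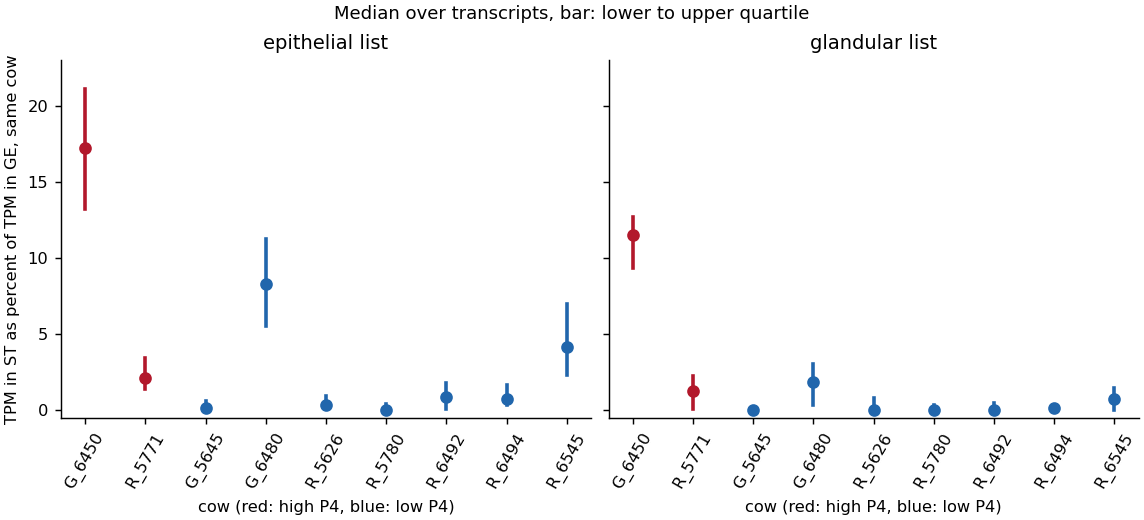
Level of a transcript in ST as a percent of its level in GE of the same cow (vertical axis, TPM over TPM) for the 9 cows with both samples (horizontal axis), with the median over the epithelial list (left) or the glandular list (right) as a point and the range from the lower to the upper quartile as a bar. The values of each cow cover the list transcripts with at least 10 TPM in its GE sample. Cow G_6450 stands at 17.2% and 11.5%, above all other cows in both panels.

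The median change of the epithelial list was much smaller without that sample. Of its 148 tested transcripts 139 had a positive fold change, with a median of 2.10 (log2), against -0.01 over all transcripts. The list was chosen for low levels in 6 of the 9 low P4 ST samples, which favours positive changes here. Without cow G_6450 the median was 0.34 and 88 were positive. In the stricter list at 50-fold, 38 of 38 tested transcripts were positive with a median of 2.99, and without cow G_6450 33 were, with a median of 1.08. Of the 148, none was called in edgeR in either fit, and the number at an unadjusted p under 0.05 went from 63 to 8. Over all 24359 transcripts tested that number went from 2609 to 1524, with 1 high P4 sample fewer. In 5 of the 148 (3.38%) the high P4 samples all lay above the low P4 samples, against 1.75% of all transcripts tested. The list of transcripts higher in ST was small: 5 were at least 20 times higher in ST than in both epithelia, and 45 at least 5 times. Of the 44 of these tested, 10 had a positive fold change, with a median of -0.75, and without cow G_6450 the median was -0.54. This list was chosen for high levels in the same 6 low P4 samples, which favours negative changes. The summed level of the 45 was 5053 to 11122 TPM in high P4 stroma and 3163 to 12984 TPM in low P4 stroma, and the ranges overlapped. In epithelial samples it was 116 to 1772 TPM. The 5 transcripts at 20-fold summed to 22.8 (cow G_6450) to 56.2 TPM in high P4 stroma and to 17.9 to 854 TPM in low P4 stroma. In epithelial samples they summed to 0.281 to 26.0 TPM, so at 20-fold the ranges of stroma and epithelium overlapped.

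Each ST sample was also set against all others, which shows what 1 library contributes. The sample of cow G_6450 stood at least 2-fold above the other 11 in 268 transcripts, and 240 of these (89.6%) had at least 5 times as high a level in epithelium. For the low P4 cow G_6480 the number was 278, and 47 of them (16.9%) met this ratio, against 6.55% of all transcripts tested. Cow G_6480 is among the 6 low P4 cows whose stroma forms the ratio and cow G_6450 is not, so a transcript high in the former is less likely to meet it and the 2 shares are not on equal terms. The other high P4 cows had 97 (cow G_6460) and 58 (cow R_5771), and the other low P4 cows 26 (cow R_6494) to 205 (cow R_6492). The largest numbers below all others were 309 in cow R_6492 and 254 in cow R_6545, both with low P4, against 35 to 65 in the high P4 cows. Leaving out cow G_6450 changed the number called from 2 to 1 in edgeR and from 410 to 192 in DESeq2, where 53 were then higher and 139 lower. Those refits had 1 high P4 sample fewer. In edgeR the number was also 1 without the low P4 cow G_3030, G_5645, R_5626, R_5780, R_6492 or R_6494. DESeq2 was not refitted without any other sample, so its drop cannot be credited to cow G_6450 in particular.

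**Figure D5:**
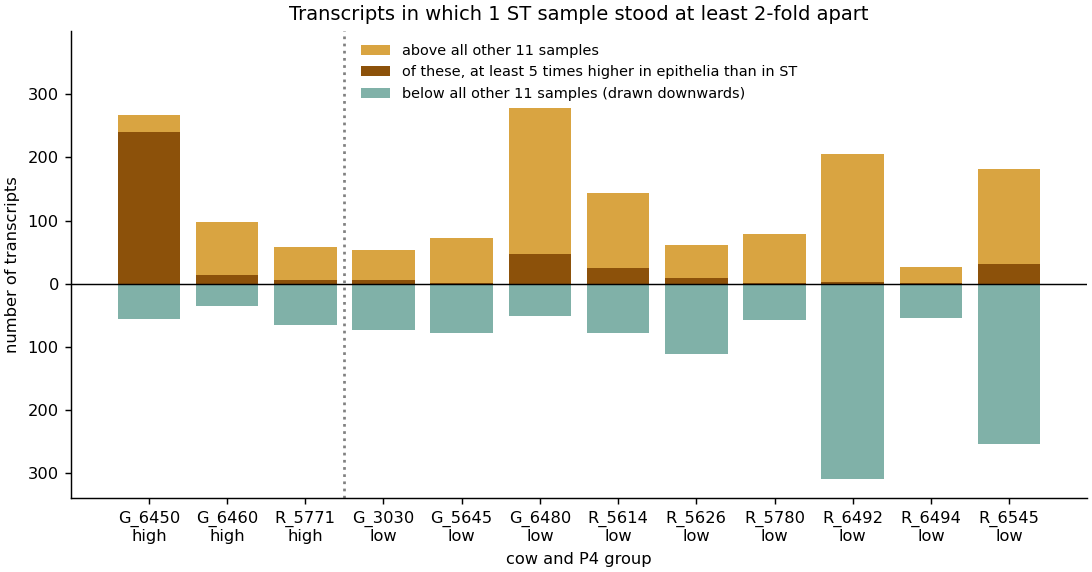
Number of transcripts (vertical axis) in which the ST sample of 1 cow (horizontal axis, high P4 cows left of the dotted line) stood at least 2-fold above (upward bars) or below (downward bars) all the other 11 samples, with the dark part marking those whose level in epithelium was at least 5 times that in low P4 stroma. The upward bar is mostly dark in cow G_6450 (240 of 268) and mostly light in cow G_6480 (47 of 278).

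Strict presence and absence with P4 was rare. With a count of at most 3 in every sample of one group and of at least 10 in every sample of the other, 3 of 37925 transcripts were present only in high P4 stroma, at mean levels of 0.405 to 1.5 CPM in that group, and 0 only in low P4 stroma. With limits of 10 and 30 counts, ENSBTAT00000048571.4 was the 1 transcript present only in high P4 stroma.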

How the data were processed

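RNA of laser-captured stroma, 2.5 ng per sample, was amplified with SMART-Seq v4 (10 cycles) and made into libraries with Nextera XT (12 cycles) of 100 bp paired-end reads, per the labels and the methods of the study. The authors quantified the reads in Salmon 1.1.0, with the cDNA set of Ensembl release 98 (ARS-UCD1.2) as the index. The estimated counts deposited by the authors are not normalized, and reads shared by similar transcripts are divided among them by Salmon, so members of gene families are uncertain. The TPM values deposited beside them are scaled by effective length. The submitters' notes also name DESeq2 1.26.0. Without molecular identifiers, amplified copies cannot be told from molecules.

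Here counts were rounded, and 24359 of 37925 transcripts that reached 10 counts in 3 or more ST samples were tested with edgeR 4.0.16 (TMM, quasi-likelihood, R 4.3.3), two-sided, with a limit of 0.05 on the p adjusted by Benjamini-Hochberg, on the ST samples alone. The common biological coefficient of variation was 0.778. Standard errors were derived from the quasi-likelihood F statistic. Library measures were compared by exact permutation tests of 220 choices. By rule, 2 transcripts in each direction were named, those past the threshold with the largest change, a mean CPM of 1 or more and no overlap, filled up by the smallest p. The comparison, its lists and the rules were chosen with earlier results of these data known. Gene lists and markers could not be used, for want of gene names. Alternatives were DESeq2 1.42.0, limma 3.58.1 (voom and log2(TPM + 1) or log2(TPM + 0.1)), robust estimation, RLE, other filters, rounding down, length offsets, 2 covariates, all 29 samples, the tools named by the study, and leaving out each sample. A stromal list at 5-fold, non-overlap and presence without each sample, and non-overlap without epithelial transcripts were added after seeing the data. The fits were tested on simulated data. Python 3.11.15, numpy 2.4.6, pandas 2.3.3, scipy 1.17.1 and matplotlib 3.10.9 were used.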

Additional observations from a re-analysis of the deposited data

Results flagged for a closer look

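Among the 9 low P4 ST samples, 1 sample stood far from the other 8 in 4 of the 15 measures examined by Dixon's test. The test assumes normally distributed values, and CPM and TPM were used untransformed. The 4 flags can therefore not be set against a rate given by chance. Each flagged value was the highest of the group. Cow G_6480 had 1.64 CPM of ENSBTAT00000087134.1, with 0.454 as the next highest value, and 257 CPM of the abundant transcript of 1378 bases, with 75 as the next. Cow R_6545 had 0.383 CPM of ENSBTAT00000048571.4, with 0.162 as the next, both worth only a few counts. Cow G_5645 had 854 TPM summed over the stromal list of 5 transcripts, with 369 as the next. The cause of these values was not tested.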

How the results depend on the processing

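The number of transcripts called, 2 in the reported fit, stayed at 2 with robust estimation, RLE normalization, rounding down and length offsets. It was 410 with DESeq2, 21 with limma voom, 4 without a filter, 1 with the title letter as covariate, 1 with the epithelial level as covariate, 49 with all 29 samples, 12 with those except the ST sample of cow G_6450, 192 with DESeq2 without that sample, 423 with the tools the study names, 62 on log2(TPM + 1) and 9 on log2(TPM + 0.1). It was 0 when 10 counts were asked for in 9 or more samples, a filter that removes both called transcripts (2284 at an unadjusted p under 0.05). In the fits that left out 1 sample it ran from 1 to 17, the highest without cow R_5771 (11 higher, 6 lower). It was 1 without cow G_6450, G_3030, G_5645, R_5626, R_5780, R_6492 or R_6494. Except as said for the filter, the cause was not tested. ENSBTAT00000087134.1 was called in all 27 of its alternative fits, ENSBTAT00000048571.4 in 12 of 27, ENSBTAT00000000752.6 in 7 of 28, ENSBTAT00000068783.1 in 3 of 25, the abundant transcript in 11 of 28 and the second long transcript in 6 of 28, and none changed direction. No paired analysis was possible because no cow gave ST samples in both P4 groups, and shared numbers exist only between cell types of a cow.

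The difference in transcripts detected, 559 at 10 counts or more, ran from 448 to 734 with 1 sample left out. At 1 TPM or more it was 1042 (exact permutation p = 0.0273, or 0.109 adjusted over 4 library measures). The difference in total counts was -384773 (exact permutation p = 0.855) and ran from -1567650 to 519264, positive without cow R_5771 (519264) or cow G_6480 (180222). Transcripts above without overlap ranged from 450 to 1192 (921 by TPM), the most without cow R_5771, and the number was 905 without G_6450 and 727 without G_6460. Those below ranged from 278 to 769 (103 by TPM), the most without cow R_5771, and the number was 470 (G_6450 left out), 430 (G_6460), 396 (R_5614) and 394 (R_6492). Fewer samples make non-overlap easier. Presence only in high P4 ranged from 3 to 18 (1 at the higher limits), and only in low P4 from 0 to 10. At 4-fold, the transcripts in which a sample stood above and below all others were 86 and 16 in cow G_6450, 3 and 5 in cow G_6460, 6 and 15 in cow R_5771, 5 and 11 in cow G_3030, 9 and 20 in cow G_5645, 72 and 15 in cow G_6480, 24 and 24 in cow R_5614, 6 and 12 in cow R_5626, 15 and 21 in cow R_5780, 9 and 68 in cow R_6492, 3 and 16 in cow R_6494, 18 and 54 in cow R_6545.

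As a percent of the mean level in the list's own cell types, the epithelial list in cow G_6450 was 17.6 at 20-fold and 15.5 at 50-fold. The glandular list in cow G_6450 was 16.5, and 26.1 at 10-fold and 14.1 at 50-fold, and in cow R_5771 it was 1.6, and 2.86 at 10-fold. The luminal list was 1.70, 5.10 and 5.74 at 10-fold in cows R_5771, G_6450 and G_6460. The stromal list was 11.3 and 20.4 in cows R_5771 and G_6460, and 114 and 175 at 5-fold. In cow G_6450 it was 8.28, and 79.5 at 5-fold. The high P4 group has 3 cows, and without gene names no function could be assigned. Depth was similar in all samples, and counts of a few reads remain imprecise.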
